A study of Homo sapiens with 18 samples.

Results

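The human genome holds many genes that are named ZNF and a number, most of which encode proteins with C2H2 zinc fingers, and 478 such symbols were listed in the deposited tables. The genes described here were selected on their mean level over the 9 mRNA-seq libraries: a gene was kept where it had a mean of 100 or more reads in its 5′ UTR, CDS and 3′ UTR together. This left 169 genes, called the ZNF members below, of 473 numbered ZNF genes with at least 1 read and of 38716 gene symbols in all. Their mean reads ran from 100.4 to 1626.4 with a median of 200.1. Just inside the threshold were ZNF324 and ZNF133, both with a mean of 100.4 reads, and ZNF331 with 102.1. Just outside were ZNF689 with 99.8, ZNF304 with 99.1 and ZNF713 with 98.7.

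The cells were IMR90, primary human fetal lung fibroblasts. Young cells were proliferating and at low passage. Old cells had been passaged into replicative senescence. ICM cells were low-passage cells that had been exposed for 6 days to inflachromene, a compound with HMGB1 and HMGB2, proteins of chromatin, as its targets. Each condition had 3 replicates, grown independently per the study's methods, and each lysate was prepared with cycloheximide and used for both poly(A)-selected mRNA-seq and Ribo-seq, in which the mRNA fragments covered by ribosomes (footprints) are sequenced. The sample titles, which set the groups here, give 3 libraries of each condition for each assay, whereas the description of the whole series counts 4 young, 4 old and 2 ICM samples for these assays, and this difference could not be settled. IMR90 was the only kind of cell used, and the labels give no solvent-treated library in these groups.

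A C2H2 zinc finger is a short fold held together by a zinc ion between a pair of cysteines and a pair of histidines, and each finger reads a few bases of DNA. In many of these proteins the fingers stand in a row joined by a conserved linker, and an N-terminal KRAB domain recruits TRIM28 (KAP1), a scaffold for the histone methyltransferase SETDB1, HP1 proteins and the NuRD deacetylase complex. KRAB zinc finger genes lie in clusters, many of them on chromosome 19, and are best known for silencing retroelements. Other ZNF genes encode proteins that act on mitosis, RNA or ribosomes and carry only a few fingers.

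The linker between adjacent fingers was found in 114 of the 167 members for which a coding sequence was available. It is printed for 7 of them, chosen after their values were seen. The linker shows how alike members can be in a conserved stretch of about the length of a footprint. It does not stand for whole coding sequences, where the median member shared 0.238% of its 30-base windows with another listed gene. Each run is 30 bases of coding sequence on the gene's own strand, read from the GRCh37 genome with the GENCODE annotation, and the capitals mark the bases that code for the linker. ZNF746 (chr7:149171790-149171819, minus strand) and ZNF22 (chr10:45499126-45499155, plus strand) are shown since they had the largest rise and fall with ICM, and ZNF226 (chr19:44680565-44680594, plus strand) since it rose with ICM in a cluster of neighbours. ZNF587 (chr19:58370897-58370926, plus strand) and ZNF417 (chr19:58420668-58420697, minus strand) are a near-identical pair, and ZNF28 (chr19:53304027-53304056, minus strand) and ZNF468 (chr19:53344728-53344757, minus strand) are neighbours in the largest cluster.
ZNF746: ctgcacACCGGCGAGCGGCCCTTCccctgc
ZNF22: atccatACGGGGGAAAAGCCCTACaaatgt
ZNF226: ctccacACTGGGGAGAAGCCATTCaaatgt
ZNF587: gttcacACTGGAGAAAGGCCTTACaagtgt
ZNF417: gttcacACTGGAGAAAGGCCTTATgagtgt
ZNF28: attcacACTGGAGAGAAACCTTACaagtgt
ZNF468: tgtcacACTGGTGAGAAACCTTACaagtgt
The runs of ZNF587 and ZNF417 matched at 28 of 30 bases and those of ZNF28 and ZNF468 at 27, while ZNF746 matched ZNF468 at 16.

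Over whole coding sequences, 139 of the 167 members shared no window of 50 bases with another listed gene, and 69 shared no window of 30 bases, about the length of a footprint. More than 10% of the 50-base windows were shared in 10 members. ZNF587 and ZNF417 shared 66.6% of theirs with each other or with ZNF776. All windows of ZNF395 also lay in transcripts of its neighbour FBXO16. ZNF324 shared 31.7%, and ZNF746 shared 11.5% with ZNF212, ZNF282 and other genes. How the authors placed reads with several matches was not given in the sources used here, so the values of these members are uncertain as single genes.

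The mRNA-seq libraries held 7902427 to 14144455 reads in coding transcripts, and the Ribo-seq libraries 46239 to 1718521 CDS footprints. Fibroblast markers were high in every mRNA-seq library (summed level of 9 genes 13800 to 36300 CPM, reads scaled to library size with TMM, lowest in the 3 ICM libraries). Of the markers of other cell types, 3 leukocyte genes summed to 19.5 to 21.6 CPM in young, 32.4 to 35.6 in old and 53.9 to 66.1 in ICM libraries, nearly all of it CD68, with PTPRC and CD14 under 1 CPM in every library. The 5 epithelial genes summed to 299 to 317 CPM in young, 241 to 264 in old and 44.1 to 50.4 in ICM libraries. Most of this was the keratin gene KRT18 (mean 278, 233 and 29.7 CPM), while EPCAM and CDH1 had means under 1 CPM and SFTPC was at or near 0. The 3 endothelial genes summed to at most 4.41 CPM, with CDH5 at 0. The part of these markers, which moved with condition, in the results on ZNF members was not tested. Among the Ribo-seq libraries, only 34.4% of reads in young replicate 1 and 15.0% in old replicate 2 lay in a CDS. A few footprint libraries held more of the genes that are high in another condition, but these values rest on few reads. Of 6 genes high in ICM cells, young replicate 1 had 99.0 CPM, which was 4.8 reads, against 6.39 and 7.64 CPM in the other young lysates, and old replicate 2 had 60.4 CPM (2.5 reads) against 21.3 and 30.8 CPM. ICM replicate 3 had 274 CPM (12 reads) of 7 genes high in young cells, against 24.6 and 40.9 CPM in the other ICM lysates, and 137 CPM (6 reads) of the genes high in old cells, against 49.3 and 0 CPM. The mRNA-seq libraries showed no such values. In bulk samples, fewer cells of a type and less RNA per cell cannot be told apart.

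Together the ZNF members took a small and steady share of the mRNA-seq reads, which was lower in old cells. The share was 0.429%, 0.439% and 0.435% in the young libraries, 0.369%, 0.356% and 0.379% in the old libraries, and 0.430%, 0.418% and 0.435% in the ICM libraries. The 3 old libraries lay below all young and ICM libraries, and the ICM libraries overlapped the young ones (0.434% ± 0.00503, 0.368% ± 0.0115 and 0.428% ± 0.00874, SD, n = 3 each). These are shares of unscaled reads. In TMM-scaled CPM the members summed to 4210, 4350 and 4290 in young, 3910, 3730 and 3960 in old and 4150, 4100 and 4160 in ICM libraries. On that scale the old libraries were again lowest, but each ICM library lay below each young one. The share was given no test, since it sums over members that were chosen with earlier results known.

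**Figure D1:**
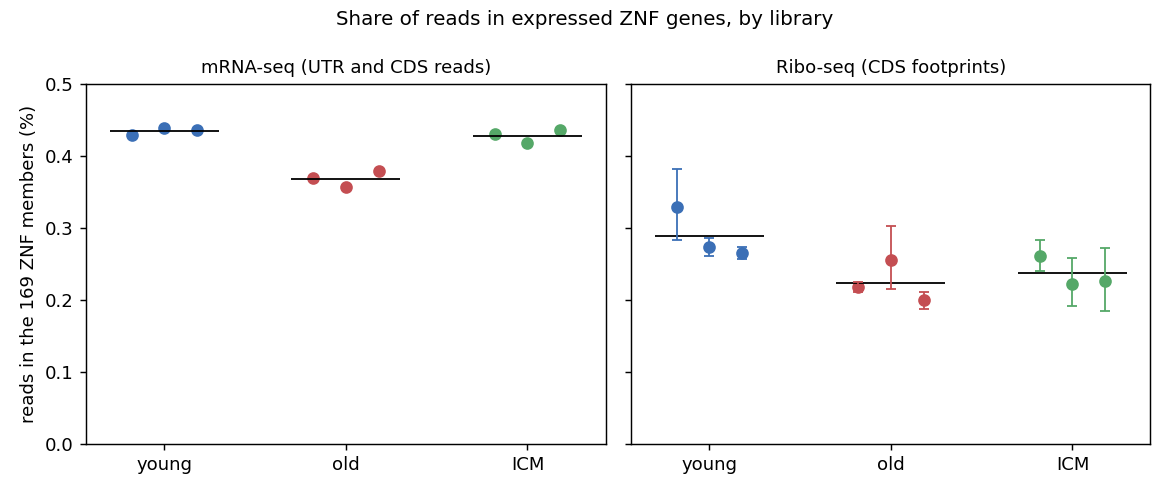
Percentage of reads that fell in the 169 ZNF members, by library, in mRNA-seq (left, UTR and CDS reads) and Ribo-seq (right, CDS footprints). Points are libraries, horizontal lines are group means, and bars in the right panel are exact 95% binomial intervals. The old mRNA-seq libraries sit between 0.356% and 0.379%, below all others.

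The levels per coding length differed widely among members. In CDS reads scaled to coding length and library size (RPKM, mean of 9 libraries), ZNF207 stood highest at 125, followed by ZNF706 at 89.3, ZNF703 at 77.4 and ZNF593 at 63.6. ZNF207 (BuGZ) binds BUB3 and takes part in spindle assembly, ZNF703 is a corepressor of the NET family, and ZNF593 is related to a yeast factor of 60S ribosomal subunit export. The order of the first 3 changed with condition: in old cells ZNF703 (110 ± 15.3 RPKM) and ZNF207 (109 ± 3.94) did not differ beyond their spread, while in young cells ZNF703 was at 48.5 ± 3.89 and ZNF706 at 122 ± 5.77.

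With ICM, the ZNF members moved in both directions. Of the 169 members, 104 (61.5%) passed the test (edgeR's quasi-likelihood test, Benjamini-Hochberg adjusted p under 0.05 over all genes tested), against 71.0% of the 13173 genes tested and 74.6% of the 9715 genes with the same minimum of reads. Of these, 44 (26.0%) rose and 60 (35.5%) fell, where 34.9% of all genes rose and 36.1% fell. The median change of the members was -0.06 on the log2 scale, against -0.01 over all genes, and the median size of the change was 0.297, against 0.458 over all genes and 0.41 over genes with the same minimum of reads. The test was passed with a change over 1 on the log2 scale by 9 members (5.33%), by 20.7% of all genes and by 15.6% of genes with the same minimum of reads.

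ZNF746 (PARIS), a KRAB zinc finger repressor of PPARGC1A and a substrate of parkin, had the largest rise with ICM. Its level was 20.8, 21.6 and 22.3 CPM in young cells, 20.1, 18.8 and 19.3 CPM in old cells and 54.8, 56.8 and 61.2 CPM in ICM cells. The ICM libraries stood apart from all 6 others, with a log2 change of 1.41 (standard error, SE, 0.08, adjusted p = 2.52e-13) against young. ZNF720 went from 5.83, 6.63 and 7.05 CPM in young cells to 13.7, 12.2 and 14.9 CPM with ICM (log2 change 1.06, SE 0.13, adjusted p = 2.68e-07), and ZNF226 from 11.7, 11.9 and 11.6 CPM to 23.1, 22.6 and 21.1 CPM (0.92, SE 0.10). ZNF524, which binds telomeric DNA, rose by 1.02 (SE 0.14). Old libraries of ZNF720 (7.53, 8.45 and 6.30 CPM) overlapped the young ones.

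ZNF22 had the largest fall. It was at 22.2, 22.9 and 26.9 CPM in young cells, 10.2, 11 and 10 CPM in old cells and 8.34, 6.94 and 7.12 CPM in ICM cells. The 3 groups did not overlap, and the log2 change was -1.68 (SE 0.11, adjusted p = 7.61e-12) for ICM against young and -1.20 (SE 0.11, adjusted p = 1.74e-09) for old against young. ZNF496, which carries a SCAN dimerization domain, went from 51.7, 49.6 and 42.1 CPM to 18.2, 17.3 and 18.7 CPM with ICM (-1.40, SE 0.10). ZNF697 (-1.09, SE 0.11), ZNF608 (-1.06, SE 0.11), ZNF521 (-1.0, SE 0.13) and ZNF581 (-0.94, SE 0.12) also fell. ZNF521 is a cofactor of mesenchymal and blood progenitor cells, and its young libraries (18.7, 22.8 and 17.3 CPM) lay above the ICM libraries (11.6, 9.44 and 8.22 CPM).

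In old cells most of the members that changed were lower than in young cells. Of the 169 members, 93 passed the test, against 66.1% of all genes. Only 16 (9.47%) rose while 77 (45.6%) fell, where 32.4% of all genes rose and 33.7% fell. Among the 9715 genes with the same minimum of reads, 35.9% rose and 33.5% fell. The median change was -0.18 on the log2 scale, against -0.01 over all genes, and 5 members (2.96%) passed the test with a change over 1 on the log2 scale, as did 15.9% of all genes and 10.3% of those with the same minimum of reads.

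The falls in old cells were led by ZNF503, like ZNF703 a corepressor of the NET family. Its level was 48.5, 59.3 and 59.0 CPM in young cells and 24.8, 18.3 and 25.8 CPM in old cells. Each old library was below each young one, with a log2 change of -1.30 (SE 0.11, adjusted p = 5.17e-10). ZNF608 went from 17.6, 17.2 and 17 CPM to 8.60, 7.78 and 8.90 CPM (-1.04, SE 0.11), and ZNF140, a KRAB member, from 15.0, 12.4 and 13.7 CPM to 6.45, 7.12 and 7.60 CPM (-0.94, SE 0.13). ZNF496 (-0.86, SE 0.10) and ZNF697 (-0.86, SE 0.11) fell as well.

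The few rises in old cells included the member with the most reads. ZNF703 was at 91.1, 96.5 and 103 CPM in young cells, 225, 182 and 230 CPM in old cells and 130, 125 and 137 CPM in ICM cells, so that the 3 groups did not overlap. Its log2 change was 1.13 (SE 0.08, adjusted p = 2.77e-11) for old against young and 0.43 (SE 0.08, adjusted p = 5.03e-05) for ICM against young. The paralogs ZNF703 and ZNF503 thus moved in opposite directions in old cells. ZNF219, a partner of SOX9 in cartilage, had the largest rise, from 19.7, 27.0 and 21.0 CPM to 75.2, 65.4 and 88.8 CPM (1.74, SE 0.11, adjusted p = 6.02e-12), and reached 43.7, 48.9 and 46.6 CPM with ICM (1.02, SE 0.11). ZNF497 (0.82, SE 0.12), ZNF668 (0.81, SE 0.10), ZNF524 (0.71, SE 0.15) and ZNF622 (0.69, SE 0.07) rose too.

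**Figure D2:**
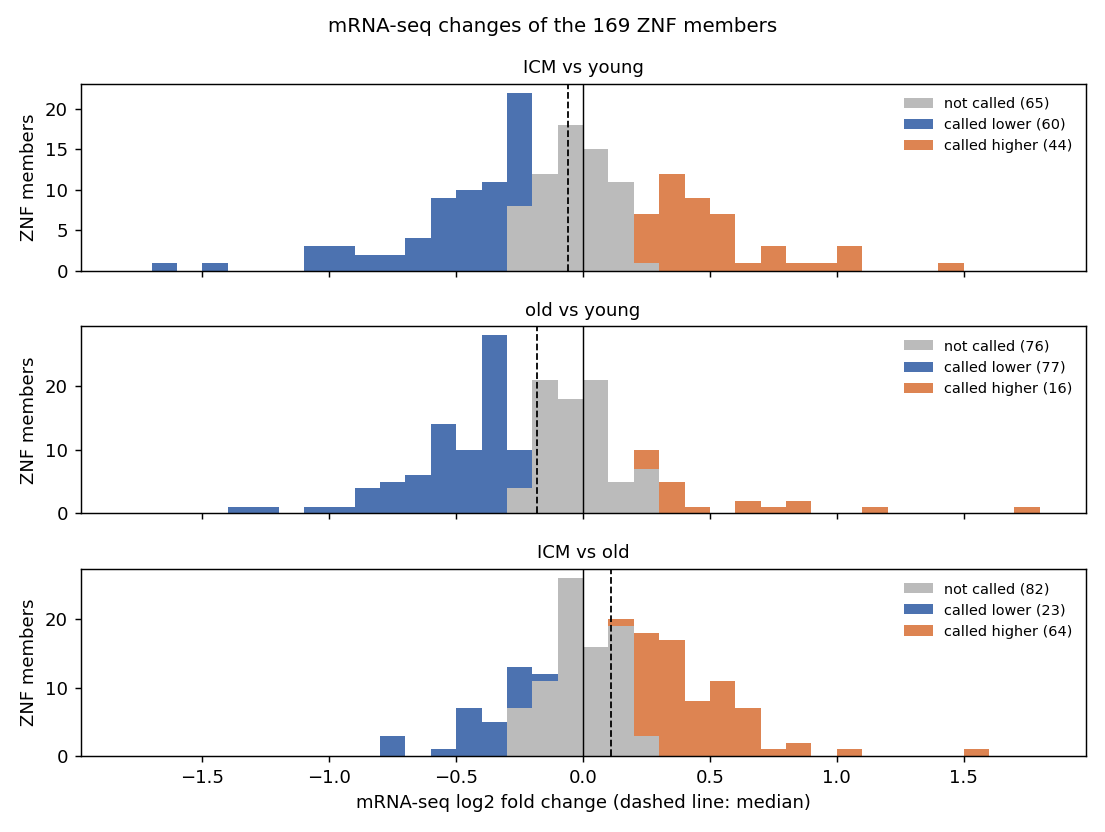
Number of ZNF members by mRNA-seq log2 fold change, in bins of 0.1, for the 3 comparisons. Grey members did not pass the test, blue members were lower and orange members higher in the first named condition, and dashed lines mark the medians (-0.06, -0.18 and 0.11). The comparisons share libraries, and the 77 lower and 16 higher members of old against young are the most uneven split.

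A direct comparison of ICM with old cells showed more members higher with ICM. Of the 169 members, 87 passed the test, against 63.3% of all genes, with 64 (37.9%) higher and 23 (13.6%) lower in ICM cells, where 30.7% of all genes were higher and 32.6% lower. The median was 0.11 against -0.01 over all genes. Only ZNF746 (1.57, SE 0.08, adjusted p = 5.15e-14) and ZNF503 (1.02, SE 0.11, adjusted p = 2.65e-08) passed the test with a difference over 1 on the log2 scale, 1.18% of the members, against 16.3% of all genes and 11.1% of those with the same minimum of reads. ZNF326, a subunit of the DBIRD complex that links transcription to splicing, was at 17.4, 18.6 and 18.4 CPM in old cells and 29.7, 30.8 and 32.6 CPM in ICM cells (0.77, SE 0.09). Its ICM libraries overlapped the young ones at 27.1, 26.8 and 31.8 CPM. ZNF668, which has been tied to DNA repair, was lower with ICM (-0.74, SE 0.10), as were ZNF219 (-0.72, SE 0.10), ZNF703 (-0.70, SE 0.08) and ZNF496 (-0.54, SE 0.11).

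ZNF395 and ZNF397 were the 2 members that rose with ICM and fell in old cells. The share of all genes called in opposite directions is not given here, so the count of 2 cannot be set against it. ZNF395 was at 19.4, 21.6 and 17.8 CPM in young cells, 16.4, 15.9 and 14.9 CPM in old cells and 29.6, 28.7 and 25.9 CPM in ICM cells, but all of its coding windows were shared with FBXO16. ZNF397 was at 22.1, 21.5 and 22.1 CPM in young cells, 16.7, 17.3 and 17.1 CPM in old cells and 25.8, 27.2 and 25.9 CPM in ICM cells. The 3 groups of ZNF397 did not overlap. Its log2 change was 0.26 (SE 0.08, adjusted p = 0.00576) with ICM and -0.36 (SE 0.09, adjusted p = 0.000896) in old cells. With CDS reads alone the second call was lost (-0.26, adjusted p = 0.226).

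**Figure D3:**
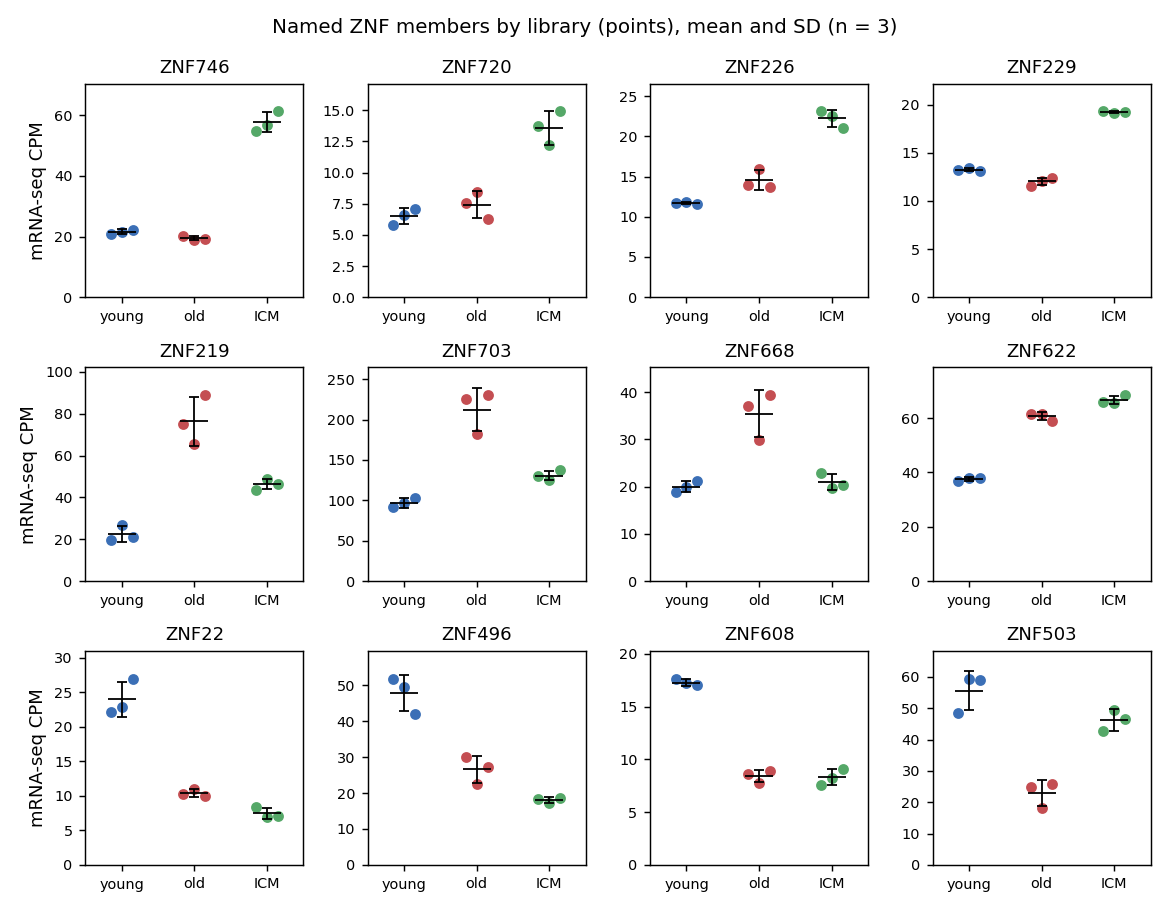
mRNA-seq level (TMM-scaled CPM) of 12 named ZNF members by library. Points are libraries, bars are the mean and SD of 3 replicates, each panel has its own axis from 0, with members higher with ICM in the top row, ZNF219, ZNF703, ZNF668 and ZNF622 in the middle, and members lower in old cells at the bottom. ZNF746 reaches 54.8 to 61.2 CPM with ICM against 18.8 to 22.3 CPM in the other libraries.

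Of 21 numbered ZNF genes listed for a known role, 16 were members. Some of these act on ribosomes. ZNF622, which releases a factor from newly made 60S ribosomal subunits, was at 36.7, 37.9 and 37.9 CPM in young cells, 61.6, 61.6 and 59.1 CPM in old cells and 66.0, 65.7 and 68.4 CPM in ICM cells. All old and ICM libraries lay above the young ones (0.69, SE 0.07, adjusted p = 6.46e-09, and 0.83, SE 0.07, adjusted p = 1.92e-10). ZNF598, the ubiquitin ligase that marks collided ribosomes, fell slightly with ICM (-0.23, SE 0.09, adjusted p = 0.0301) and had a change of 0.03 (SE 0.09, adjusted p = 0.81) in old cells.

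ZNF638, which directs the HUSH silencing complex to unintegrated retroviral DNA, was at 52.4, 64.3 and 65.8 CPM in young cells, 34.4, 36.0 and 37.6 CPM in old cells and 46.4, 45.4 and 42.8 CPM in ICM cells. The 3 groups did not overlap, and it fell by 0.76 (SE 0.08) on the log2 scale in old cells and by 0.44 (SE 0.08) with ICM. ZNF207 fell from 162, 166 and 175 CPM to 126, 133 and 130 CPM in old cells (-0.37, SE 0.06) and to 142, 138 and 138 CPM with ICM (-0.27, SE 0.06). ZNF217, a partner of the LSD1 and CoREST demethylase complex, fell in both comparisons (-0.40, SE 0.09, with ICM and -0.56, SE 0.09, in old cells), as did ZNF281, a regulator of epithelial-mesenchymal transition (-0.50, SE 0.09, and -0.32, SE 0.09), and ZNF655 (-0.57, SE 0.08, and -0.31, SE 0.07).

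Others of the 16 moved differently. ZNF274, a KRAB protein that brings SETDB1 to the 3′ ends of other zinc finger genes, was at 15.4, 16.7 and 14.9 CPM in young cells, 12, 15.3 and 15.5 CPM in old cells and 20.7, 21.1 and 22.6 CPM in ICM cells. It rose with ICM (0.45, SE 0.10, adjusted p = 0.000418), and its old libraries overlapped the young ones (-0.13, SE 0.11, adjusted p = 0.314). ZNF143, a promoter-bound activator, rose in both comparisons (0.35, SE 0.10, with ICM and 0.28, SE 0.10, in old cells). ZNF148 (-0.25, SE 0.09), ZNF462 (-0.42, SE 0.11) and ZNF469 (-0.29, SE 0.09), the gene of brittle cornea syndrome, fell in old cells, and with ICM their adjusted p-values were 0.722, 0.0526 and 0.766. ZNF827, which recruits NuRD to telomeres, fell slightly with ICM (-0.20, SE 0.09, adjusted p = 0.0489). ZNF451, a SUMO ligase, and ZNF687 did not pass the test in any comparison, with log2 changes between -0.12 and 0.21.

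Members with and without a match to a KRAB sequence pattern were counted apart, and the difference between them was not tested. The pattern was found in 53 members and not in 114. It misses diverged domains, so the 114 are not a group free of KRAB proteins. With ICM, where 34.9% of all genes rose and 36.1% fell, 13 of the 53 rose and 16 fell (24.5% and 30.2%, median -0.06), and 29 of the 114 rose and 44 fell (25.4% and 38.6%, median -0.07). The share that fell without a KRAB match was near that of all genes. In old cells, where 32.4% of all genes rose and 33.7% fell, 4 of the 53 rose and 24 fell (7.55% and 45.3%, median -0.21), and 12 of the 114 rose and 53 fell (10.5% and 46.5%, median -0.17). The number of fingers, with a median of 9 and a maximum of 36, gave medians in old cells of -0.23 for 32 members with 1 to 4 fingers, -0.19 for 51 members with 5 to 9, and -0.17 for 79 members with 10 or more. Of 9 members with a SCAN pattern, 3 fell and none rose in old cells, while 3 rose and 1 fell with ICM, and shares of so few genes are coarse.

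By RefSeq gene order, 57 members lay on chromosome 19, and 7 runs with 5 or more members were formed on chromosomes 7, 12 and 19. Within a run, at most 3 other protein-coding genes lay between successive numbered ZNF genes. Numbered ZNF genes that were not members could stand between members. The runs are small, and their counts stand against 34.9% of all genes higher and 36.1% lower with ICM, and 32.4% and 33.7% in old cells. Between ZNF45 and ZNF229 on chromosome 19, 3 of 5 members rose with ICM and none fell: ZNF226, ZNF229 (0.54, SE 0.09) and ZNF227 (0.41, SE 0.11). ZNF45 (0.00, SE 0.10) and ZNF224 (0.10, SE 0.11) from the same run did not pass the test. In the run of 14 members from ZNF841 to ZNF331, 6 rose and 3 fell with ICM (median 0.18), and 2 rose and 5 fell in old cells (median -0.15). From ZNF264 to ZNF324, 4 of 11 rose, about the share of all genes, and 1 fell with ICM, and 2 rose and 4 fell in old cells.

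From ZNF605 to ZNF268 on chromosome 12, ZNF84 (-0.59, SE 0.11), ZNF268 (-0.51, SE 0.10) and ZNF140 (-0.43, SE 0.12) fell with ICM while ZNF605 rose (0.32, SE 0.09). From ZNF398 to ZNF862 on chromosome 7, ZNF746 and ZNF862 (0.32, SE 0.12) rose with ICM, and ZNF282 (-0.46, SE 0.09) and ZNF398 (-0.32, SE 0.11) fell. ZNF282, which fell, is 1 of 4 genes that share 50-base windows with ZNF746. The changes of the others are not given here, and the part of shared reads in the rise of ZNF746 was not tested. In the remaining runs, from ZNF317 to ZNF562 and from ZNF579 to ZNF580, medians lay between -0.34 and 0.26.

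A list of genes of KRAB zinc finger repression and of silent chromatin more broadly was mostly lower in both arrested states. Among its general chromatin genes were UHRF1, DNMT1, SUV39H1, SUV39H2, EHMT1 and EHMT2, so its counts are not those of KRAB cofactors alone. The list of 25 symbols, in which TASOR and FAM208A are names of 1 gene, had 21 lower (84.0%) and 1 higher with ICM (median -0.56), where 36.1% of all genes were lower and 34.9% higher. In old cells 18 were lower (72%) and 1 higher (median -0.55), where 33.7% of all genes were lower and 32.4% higher. TRIM28, the scaffold itself, was at 308, 311 and 327 CPM in young cells, 202, 184 and 210 CPM in old cells and 159, 155 and 164 CPM in ICM cells. The groups did not overlap (-0.67, SE 0.06, adjusted p = 4.10e-09 in old cells and -0.98, SE 0.06, adjusted p = 3.87e-12 with ICM). SETDB1, which methylates lysine 9 of histone H3 at TRIM28 targets, fell by 0.70 (SE 0.10) in old cells and by 0.62 (SE 0.10) with ICM.

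UHRF1 and DNMT1, which copy DNA methylation at replication forks, fell the most of the list. UHRF1 was at 69.6, 75.9 and 75.8 CPM in young cells, 22.7, 20.6 and 26.9 CPM in old cells and 5.93, 4.81 and 6.44 CPM in ICM cells (-1.67, SE 0.09, and -3.68, SE 0.11). DNMT1 was at 113, 113 and 115 CPM, 52.9, 45.7 and 58.2 CPM, and 31.8, 32.0 and 35.4 CPM in the same order (-1.13, SE 0.08, and -1.78, SE 0.08). The NuRD subunits CHD4 (-1.16, SE 0.07, with ICM and -0.80, SE 0.07, in old cells) and HDAC2 (-0.86, SE 0.06, and -0.55, SE 0.06) fell, as did the HP1 genes CBX5 (-0.70, SE 0.06, and -0.55, SE 0.06), CBX3 (-0.65, SE 0.07, and -0.57, SE 0.07) and CBX1 (-0.46, SE 0.06, and -0.17, SE 0.06).

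The exceptions were few. MPHOSPH8, a HUSH subunit that binds methylated histone H3, rose with ICM from 18.4, 25.3 and 24.4 CPM to 33.4, 38.5 and 37.6 CPM (0.66, SE 0.11, adjusted p = 1.49e-05). PPHLN1, another HUSH subunit, rose in old cells (0.27, SE 0.07, adjusted p = 0.00202). HDAC1 had a change of 0.05 (SE 0.07, adjusted p = 0.561) with ICM and -0.12 (SE 0.07, adjusted p = 0.133) in old cells. CHD3 fell with ICM (-0.55, SE 0.06) and had a change of 0.02 (SE 0.06, adjusted p = 0.79) in old cells. The 7 genes listed as high in young cells, which act in cell division, summed to 508 to 527 CPM in young, 107 to 124 CPM in old and 5.85 to 6.99 CPM in ICM mRNA-seq libraries. They were listed for that direction, so it is no result, and the part of cell division in the cofactor levels was not tested.

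**Figure D4:**
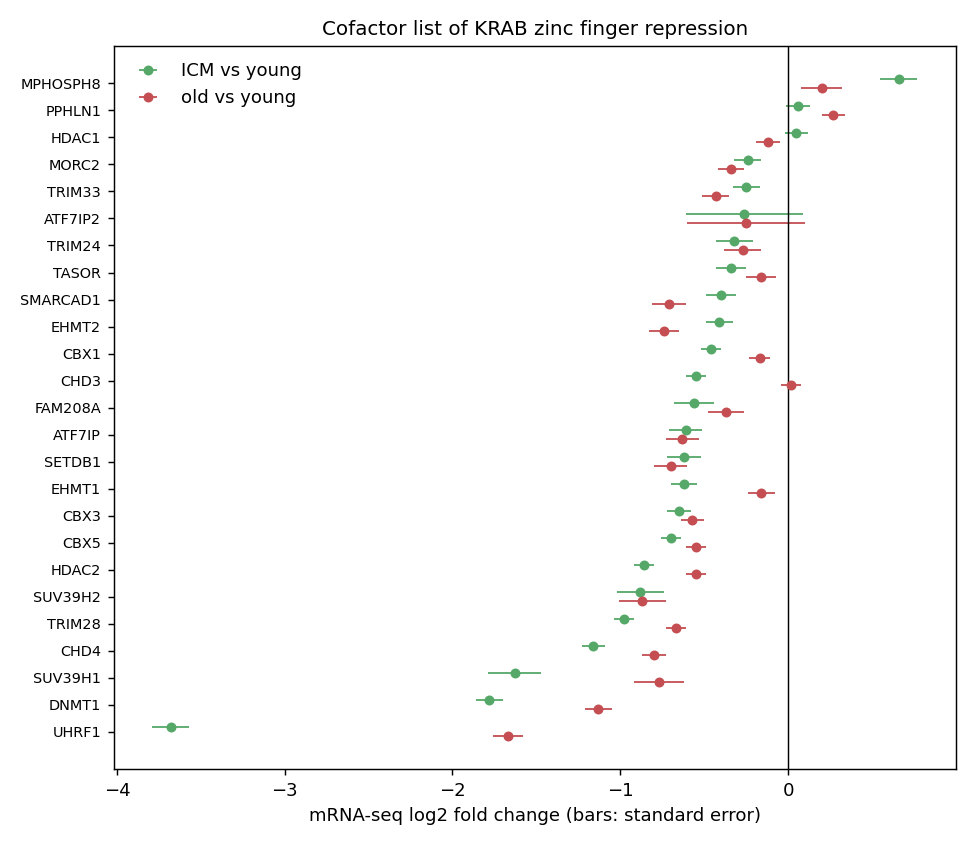
mRNA-seq log2 fold change of the 25 symbols of the cofactor list, for ICM against young (green) and old against young (red). Bars are standard errors, both comparisons share the young libraries, and genes are ordered by the change with ICM. TRIM28 stands at -0.98 and -0.67, and MPHOSPH8 is the only symbol called higher with ICM.

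Genes with related symbols and the same minimum of reads were counted in the same way. They were chosen by symbol alone, so ZBTB8OS, which passed the mRNA-seq test in no comparison, and ZFP36 are counted among them. Of 26 genes with a ZBTB symbol, most of which encode proteins with a BTB dimerization domain, 5 rose and 13 fell in old cells (19.2% and 50%, median -0.25), against 32.4% and 33.7% of all genes. With ICM 9 rose and 8 fell (34.6% and 30.8%, median -0.05), which is near the 34.9% and 36.1% of all genes. Of 9 ZSCAN and ZKSCAN genes, 1 rose and 2 fell in old cells and 4 rose and 3 fell with ICM. Of 7 ZFP genes, none rose and 4 fell in old cells, and 1 rose and 3 fell with ICM. These 2 families are too small for their shares to be set against those of all genes.

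Footprints on the ZNF members were sparse. Summed over the 9 Ribo-seq libraries, 134 members had 20 or more CDS footprints, 35 had fewer and none had 0, with a median of 42.8 and a highest value of 997.0 in ZNF207. The 134 members held 6362.2 footprints in young, 4747.2 in old and 842.0 in ICM cells. In ICM cells 20 of them had no footprint and 113 had under 10, so that most single members could not be followed there. The share of footprints in all 169 members was 0.329%, 0.273% and 0.265% in young lysates, 0.217%, 0.255% and 0.199% in old lysates and 0.261%, 0.222% and 0.226% in ICM lysates. The exact 95% interval of young replicate 1 was 0.283% to 0.381% and that of ICM replicate 3 was 0.184% to 0.272%, and these intervals cover counting error only.

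In every lysate the members took a smaller share of footprints than of mRNA-seq CDS reads. The ratio of the shares was 0.851, 0.686 and 0.661 in young, 0.621, 0.773 and 0.544 in old, and 0.660, 0.579 and 0.557 in ICM lysates, all 9 below 1. The conditions overlapped. The highest values in young and old came from replicate 1 and replicate 2, the libraries with the lowest CDS share, and the part of that share in the ratio was not tested. The ratio of other genes is not given here, so values below 1 cannot be called low for these members. In young lysates the 9 fibroblast markers summed to 32000, 35600 and 36300 CPM in mRNA-seq and to 54800, 58800 and 55700 CPM in footprints. The part of such abundant genes in the ratio was not tested.

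The filter on low counts kept 12 members in Ribo-seq, which held 4367.2 of the 12399.5 footprints of all members. With ICM, 3 of the 12 passed the test, against 26.6% of the 4643 genes tested. In old cells 6 passed, against 36.3%, and 1 differed between ICM and old cells, against 13.4%. These counts moved with the settings more than those of mRNA-seq. ZNF746, with the largest mRNA-seq rise with ICM, did not pass the test in footprints (0.85, SE 0.57, adjusted p = 0.291). Its ICM lysates were at 64.1, 54.6 and 0 CPM and its young lysates at 79.2, 28.8 and 25.5 CPM.

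ZNF638 fell in footprints as it did in mRNA-seq. Its footprint level was 119, 99.1 and 112 CPM in young lysates, 39.8, 60.4 and 32.8 CPM in old lysates and 24.6, 0 and 68.5 CPM in ICM lysates, where it had 5, 0 and 3 reads. All old and ICM lysates lay below the young ones, with log2 changes of -1.48 (SE 0.29, adjusted p = 0.000158) and -2.09 (SE 0.53, adjusted p = 0.00295). Without young replicate 3 both calls were lost (adjusted p = 0.0827 and 0.0531).

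ZNF703 rose in footprints in both comparisons. It had 119, 59.1 and 90.4 CPM in young lysates, 245, 282 and 209 CPM in old lysates and 207, 191 and 206 CPM in ICM lysates. The young lysates lay below the rest, with log2 changes of 1.54 (SE 0.22, adjusted p = 9.80e-07) and 1.33 (SE 0.29, adjusted p = 0.000769). The call in old cells held under all 11 alternatives, and that with ICM was lost without ICM replicate 1 (adjusted p = 0.0546). ZNF503 had 139, 91.1 and 94.2 CPM in young lysates and 45.5, 40.2 and 28.7 CPM in old lysates (-1.25, SE 0.29, adjusted p = 0.000926), and this call was lost without young replicate 3 (adjusted p = 0.0511).

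ZNF622 had 119, 68.7 and 52.2 CPM in young lysates, 123, 101 and 117 CPM in old lysates and 232, 68.2 and 22.8 CPM in ICM lysates. The ICM lysates ranged over the young ones, and the rise with ICM (1.36, SE 0.38, adjusted p = 0.00696) turned to -0.34 (adjusted p = 0.788) without ICM replicate 1. Its rise in old cells (0.97, SE 0.29, adjusted p = 0.00849) was kept under 5 of 11 alternatives. ZNF207 (-0.82, SE 0.22, adjusted p = 0.00399) and ZNF326 (-1.05, SE 0.41, adjusted p = 0.0447) fell in old cells, under 5 and 4 of 11 alternatives. ZNF207 was higher in ICM than in old lysates (0.98, SE 0.28, adjusted p = 0.0137), at 246, 218 and 617 CPM against 152, 181 and 152 CPM, and this call was lost without ICM replicate 3 (0.52, adjusted p = 0.222).

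**Figure D5:**
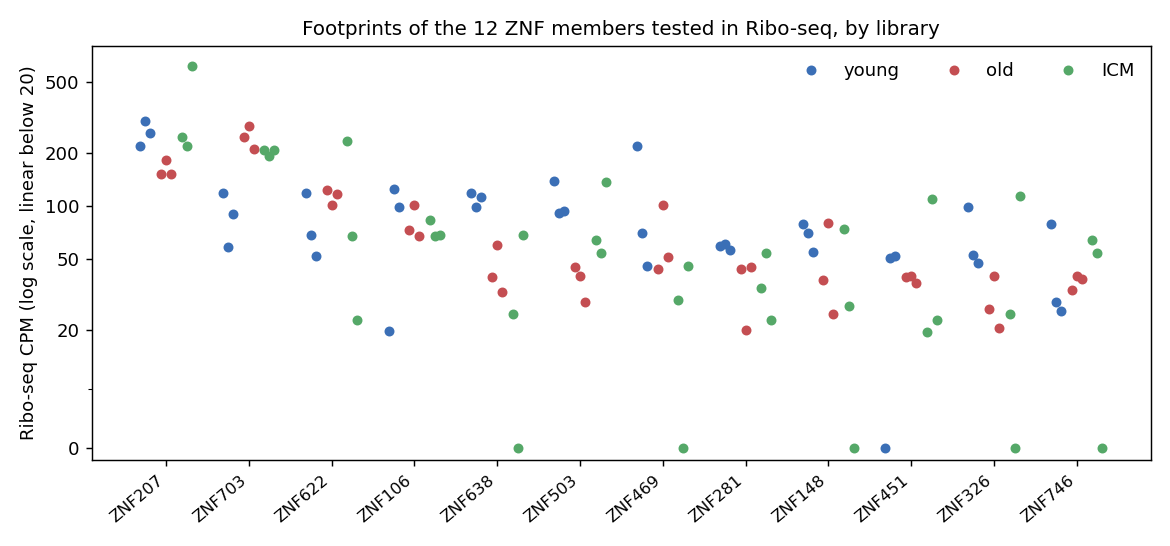
Ribo-seq level (TMM-scaled CPM) of the 12 tested ZNF members by library, on a log axis that is linear below 20, ordered by summed footprints. Blue, red and green points are young, old and ICM lysates. ZNF703 stands at 59.1 to 119 CPM in young and 191 to 282 CPM in the other lysates, and several members have an ICM lysate at 0.

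Translational efficiency, the footprint level relative to mRNA, was tested in the same 12 members through an interaction term of condition with assay. No member passed the test in any comparison (edgeR and DESeq2 both 0), against 2.08% of the 4618 genes tested for ICM against young, 1.47% for old against young and 0.282% for ICM against old. At an unadjusted p under 0.05 there were 3, 0 and 1 members, and the share of all genes under that threshold is not given here. The 3 with ICM were ZNF703 (0.92, SE 0.31), ZNF638 (-1.65, SE 0.57) and ZNF469 (-1.37, SE 0.65), with adjusted p-values of 0.112, 0.126 and 0.291, and the 1 in ICM against old was ZNF207 (0.78, SE 0.29, adjusted p = 0.294). These 4 differences did not pass after adjustment over the 4618 genes tested.

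Of the 25 symbols of the cofactor list, 17 could be tested in Ribo-seq. With ICM, 6 passed the test (35.3%), all of them lower: UHRF1 (-4.35, SE 0.68), DNMT1 (-2.83, SE 0.50), CBX5 (-1.70, SE 0.49), HDAC2 (-1.39, SE 0.30), CBX3 (-0.99, SE 0.30) and CHD4 (-0.88, SE 0.30). Summed over the ICM lysates, UHRF1 had only 2 footprints, DNMT1 7 and CBX5 13. Of all genes tested, 26.6% passed in either direction. Among those with a mean of 100 or more mRNA-seq reads, 12.2% were lower. In old cells 9 passed (52.9%), again all lower, among them SMARCAD1 (-1.25), TRIM33 (-1.05) and ATF7IP (-0.91). There, 36.3% of all genes tested passed in either direction, and 16.3% of those with the same minimum of reads were lower. TRIM28 had a footprint change of -0.41 in both comparisons, with adjusted p-values of 0.200 with ICM and 0.110 in old cells.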

How the data were processed

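The deposited tables give, per library and gene symbol, estimated counts in the 5′ UTR, CDS and 3′ UTR, which the authors did not scale to depth. The submitters' notes name GRCh37, STAR 2.6.0c, featureCounts, DESeq2 and deepTools, with no role. Groups and replicate numbers came from sample titles. For mRNA-seq the 3 regions were summed, for Ribo-seq the CDS was used, and counts were rounded. edgeR 4.0.16 (R 4.3.3; TMM, filterByExpr, glmQLFit, glmQLFTest, all 9 libraries of an assay in 1 fit) gave two-sided p-values with Benjamini-Hochberg adjustment over all genes. Translational efficiency was the interaction of assay and condition with the lysate as a block, which rests on the methods' statement of shared lysates; within-lysate correlations of deviations ran from -0.0795 to 0.136. The fits were tested on simulated data. DESeq2 1.42.0, RLE scaling, no filter, CDS reads only and leaving out replicates were alternatives. p-values cover the spread between these replicates.

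The members and lists were chosen with earlier results of these data known. Named genes were, per mRNA-seq comparison, the 6 largest rises and falls among called members whose groups did not overlap, called members in Ribo-seq, the members with the most footprints or the highest level per length, those called in opposite directions, and the known-role list. Sequence features came from GENCODE v44lift37 coding sequences, which 167 of 169 members had. Symbols were matched to RefSeq, 168 by current and 1 by an older symbol.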

Additional observations from a re-analysis of the deposited data

Results flagged for a closer look

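The effects of ICM and of replicative senescence differed in direction for 2 members, each called higher with ICM and lower in old cells, with the difference itself tested as ICM against old. How common such opposite calls are among all genes is not given here. For ZNF395 the difference was 0.83 on the log2 scale (SE 0.09, adjusted p = 6.75e-08, edgeR), higher in 3 of 3 ICM libraries, and 0.94 with CDS reads alone. Its coding windows all lay in FBXO16 transcripts as well, so the value may belong to either gene. For ZNF397 the difference was 0.63 (SE 0.08, adjusted p = 7.45e-07), higher in 3 of 3 ICM libraries, and 0.90 with CDS reads alone, where the fall in old cells was not called.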

How the results depend on the processing

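The direction of the mRNA-seq counts held under every alternative run. The counts below are of members only, without the shares of all genes under each alternative. They show how the calls moved, not how the members compare with other genes. Requiring a log2 change over 0.6 left 26 members for ICM against young (10 higher, 16 lower), 26 for old against young (7 and 19) and 16 for ICM against old (13 and 3). The median changes with CDS reads only were -0.08, -0.23 and 0.14, and with a mean of 200 or more reads -0.13 for old against young and 0.16 for ICM against old. Leaving out 1 replicate gave 93 to 102, 83 to 88 and 72 to 83 members in mRNA-seq and medians of -0.08 to -0.05, -0.20 to -0.17 and 0.09 to 0.12. Leaving out members with over 10% shared windows, chosen after seeing the data, gave 99, 87 and 80. In Ribo-seq, ICM against young gave 8 members with no filter and 6 without the 2 low-CDS lysates, and old against young gave 3 with DESeq2, 11 with no filter, 3 with the replicate number as a block and 11 without the 2 low-CDS lysates, where 60 members were tested. Leaving out 1 lysate gave 1 to 6, 1 to 12 and 0 to 1 members there, and 0 to 2, 0 and 0 in translational efficiency, where no replicate block gave 1 for ICM against young. In Ribo-seq both lowest counts against young followed from leaving out young replicate 3, and the highest (6 and 12) from leaving out ICM replicate 3 and young replicate 1. The change of ZNF622 footprints with ICM ran from -0.34, without ICM replicate 1, to 1.58. The causes were not tested. Replicate numbers did not pair the conditions: same-numbered mRNA-seq libraries correlated in their deviations with r from -0.0555 to 0.103, and the replicate block gave 104, 95 and 87 members in mRNA-seq. Of the values of named members under alternatives, 989 kept their direction and side of the threshold, 80 lost and 12 gained a call, and 1 reversed. The depth of the ICM Ribo-seq lysates, 46239 to 225041 CDS reads, limits every statement on footprints.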
